A study of Mus musculus with 6 samples.

Results

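Myostatin and activins are secreted ligands of the TGF-β superfamily that restrain muscle growth. 8 genes of this signaling route were followed in soleus, the slow-fiber-rich muscle under the gastrocnemius of the hind limb: the ligands *Mstn* (myostatin) and *Gdf11*, the follistatin family genes *Fst*, *Fstl1* and *Fstl3*, and the receptors *Acvr1b*, *Acvr2a* and *Acvr2b*. They were chosen by symbol, and each matched 1 of the 16180 distinct genes in the deposited normalized table and 1 of 51912 in the raw count table. Poly-A RNA came from the soleus of 8-week-old C57BL6/N mice, 3 heterozygous for the Mustn1 KO-first allele (HET) and 3 Wildtype littermates (WT), with 1 library per mouse. The allele carries a gene trap with lacZ and neomycin resistance cassettes that is meant to cut *Mustn1* transcripts short. It is present in all cells of the body, and HET mice keep 1 normal copy. *Mustn1* encodes a small protein of muscle and of vascular smooth muscle.

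In muscle, myostatin is made by the fibers as a precursor whose propeptide must be removed by furin-like convertases and by proteases of the BMP-1/tolloid family. The mature ligand, like GDF11 and the activins, binds a type II receptor (ActRIIA or ActRIIB, from *Acvr2a* and *Acvr2b*), which recruits a type I receptor such as ALK4 (from *Acvr1b*) and leads to phosphorylation of Smad2 and Smad3. Follistatin and FSTL3 trap activins and myostatin outside the cell, whereas FSTL1 shares a follistatin-like domain but is a more distant relative that is not an established activin trap.

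The libraries held between 26790075 and 50368796 reads on genes. The labels give all 6 mice as male, yet *Xist*, the RNA of the inactive X chromosome, had 3858 to 9154 reads per library, and the Y-linked genes *Ddx3y*, *Kdm5d*, *Uty* and *Eif2s3y* together had 0 to 12. Both genotypes were alike in this. The targeted gene *Mustn1* had 471, 452 and 574 reads in the HET and 691, 817 and 1504 in the WT libraries, at a log2 fold change of −0.96 (standard error, SE, 0.15, edgeR adjusted p = 0.0452). It passed in 10 of 17 other settings, and in 2 of the 6 that left out 1 mouse. The slow myosin *Myh7* (13642 to 14766 CPM, reads scaled to a common library size) and the type 2A myosin *Myh2* (12653 to 16003 CPM) were abundant in every library. Of 14696 genes tested, 22 passed an adjusted p of 0.05.

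The 8 genes lie on 7 chromosomes in the genome build GRCm38 used for the deposited counts. *Mstn* (ENSMUSG00000026100) runs from 53061640 to 53068079 on the plus strand of chromosome 1 and has 3 exons, and *Gdf11* (ENSMUSG00000025352) from 128882295 to 128891718 on the minus strand of chromosome 10, with 3 exons. *Fst* (ENSMUSG00000021765) lies on chromosome 13, 114452262 to 114458730, *Fstl1* (ENSMUSG00000022816) on chromosome 16, 37776873 to 37836514, and *Fstl3* (ENSMUSG00000020325) on chromosome 10, 79777272 to 79782630. *Acvr1b* (ENSMUSG00000000532) lies on chromosome 15, 101174067 to 101213679, *Acvr2a* (ENSMUSG00000052155) on chromosome 2, 48814109 to 48903269, and *Acvr2b* (ENSMUSG00000061393) on chromosome 9, 119402118 to 119434995. *Acvr1b* shares its strand with the microRNA gene *Mir6962*, and the counting leaves out reads that fall on both. *Fstl3*, *Acvr2a* and *Acvr2b* overlap *Prss57*, *Orc4* and *Gm47320* on the opposite strand, which stranded counting keeps apart.

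Since *Mstn* and *Gdf11*, and *Acvr2a* and *Acvr2b*, are close paralogs, their transcripts were compared to see whether a 50-base read could belong to both. Over the last 300 coding bases of *Mstn* and *Gdf11*, which encode most of the mature ligand, 224 bases were identical (74.7%). The longest identical run between the coding sequences of these ligands had 12 bases, and that between the receptors *Acvr2a* and *Acvr2b* had 14. Among all 28 pairs of the 8 genes the longest run had 20 bases (*Gdf11* and *Acvr2b*), shorter than a read. Only annotated protein-coding transcripts were compared. The stretches are shown 5′ to 3′ on the coding strand, with the shared run in capitals and 12 bases on either side. They lie in exon 2 of *Mstn* (chr1:53063957-53063992), exon 2 of *Gdf11* (chr10:128886436-128886471), exon 9 of *Acvr2a* (chr2:48897041-48897078) and exon 8 of *Acvr2b* (chr9:119432558-119432595).
Mstn: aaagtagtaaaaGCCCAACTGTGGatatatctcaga
Gdf11: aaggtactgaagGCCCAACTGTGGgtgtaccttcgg
Acvr2a: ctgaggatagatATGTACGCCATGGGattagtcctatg
Acvr2b: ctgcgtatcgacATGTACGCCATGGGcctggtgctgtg

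Promoter windows of RefSeq (GRCm38.p6), each from 250 bases before a gene's RefSeq start to 50 after it, were at hand for 7 of the 8 genes. The RefSeq start can differ from the gene's first base given above. For *Fstl1* it lies downstream of that base, 37776873, so most of its window falls within the gene as counted. Those of *Mstn* (chr1:53061390-53061689, plus strand) and *Fstl1* (chr16:37776805-37777104, plus strand) are shown because these genes had the largest differences between genotypes, in opposite directions. Capitals mark the E-box CANNTG, the short palindrome bound by myogenic factors and other basic helix-loop-helix proteins, searched on both strands.
Mstn: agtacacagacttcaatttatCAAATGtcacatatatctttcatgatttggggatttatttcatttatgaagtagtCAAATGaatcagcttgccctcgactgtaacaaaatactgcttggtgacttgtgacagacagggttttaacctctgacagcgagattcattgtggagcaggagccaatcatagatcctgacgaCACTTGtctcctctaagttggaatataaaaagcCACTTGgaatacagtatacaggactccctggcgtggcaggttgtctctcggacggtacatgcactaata
Fstl1: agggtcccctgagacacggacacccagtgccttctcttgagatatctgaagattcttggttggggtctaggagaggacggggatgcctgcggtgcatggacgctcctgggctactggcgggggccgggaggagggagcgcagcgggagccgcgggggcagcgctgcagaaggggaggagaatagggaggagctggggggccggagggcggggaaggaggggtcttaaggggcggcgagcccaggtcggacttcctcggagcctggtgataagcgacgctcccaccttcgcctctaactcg
The *Mstn* window held 4 E-boxes, whose first bases lie 229, 174, 52 and 19 bases before the start, and a TATAAA 29 bases before it. The *Fstl1* window held 0 matches to either. Of all 32851 promoter windows of this length, 72.3% held an E-box and 13.6% a TATAAA on either strand. These matches describe letters and not binding.

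Per length of transcript, the ligands were among the least abundant of the 8 genes. In TPM, the level of a transcript relative to its length and to all others, *Fstl1* led with 45.4 to 139 over the 6 mice, followed by *Acvr2a* with 18.6 to 22.4, *Acvr1b* with 10.6 to 16.5, *Fst* with 7.73 to 14.0 and *Acvr2b* with 4.17 to 8.82. *Gdf11* (1.71 to 3.06 TPM), *Fstl3* (1.65 to 2.66 TPM) and *Mstn* (1.16 to 3.22 TPM) were lowest. The ranges of *Acvr1b* and *Fst*, and those of the lowest genes, overlapped and their order differed between mice. *Fst* and *Acvr2b* overlapped in range, but *Fst* was the higher of the pair in each of the 6 mice, and *Fstl1*, *Acvr2a* and the step from *Acvr2b* down to *Gdf11* stood clear of their neighbors in every mouse.

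**Figure D1:**
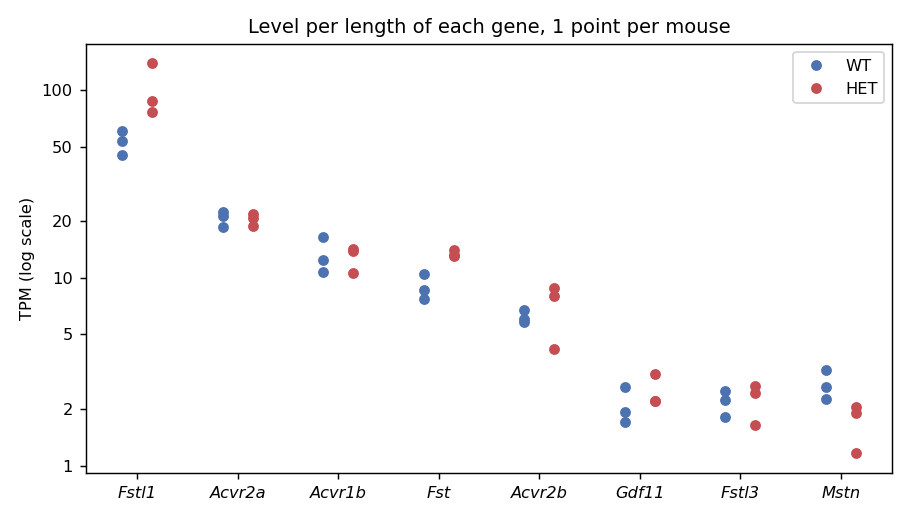
Level of each gene in TPM on a log axis, with 1 point per mouse (blue WT, red HET). The ligands *Gdf11* and *Mstn* and the trap *Fstl3* sit between 1.16 and 3.22 TPM, below all points of the receptors.

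The question for each gene was whether its RNA differed between HET and WT muscle. All 8 genes passed the filter on low counts, and none passed an adjusted p of 0.05 with edgeR's quasi-likelihood test, where 0.15% of all genes tested did. At an unadjusted p below 0.05, 3 of the 8 stood out, *Mstn* with a lower mean and *Fst* and *Fstl1* with a higher mean in HET mice, against 7.76% of all genes tested. In the same genes the genotypes did not overlap. Over all genes tested, every HET mouse lay above every WT mouse in 7.55% and below in 6.02%. The median log2 fold change was −0.02 over the 8 genes and −0.02 over all genes tested. With DESeq2's Wald test 1 of the 8 passed, *Fstl1*, likewise with edgeR without a filter on low counts, and 0 with limma-voom or limma-trend.

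**Figure D2:**
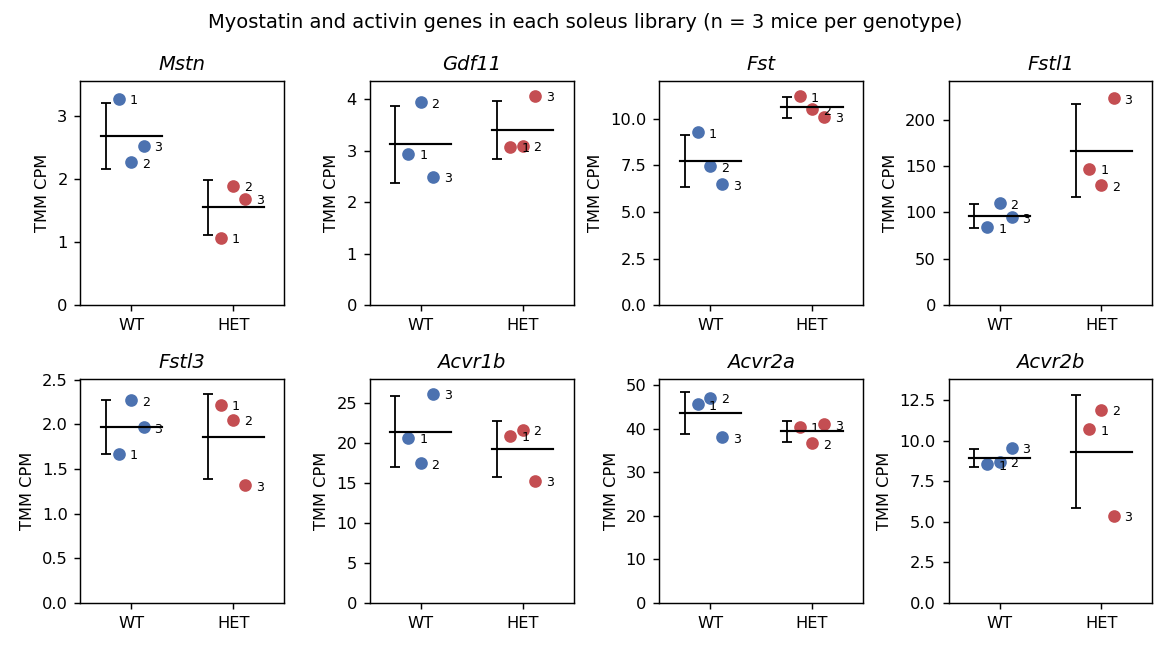
Normalized counts (TMM CPM) of each gene in each library, with replicate numbers beside the points, the mean as a line and the SD as a bar (n = 3 per genotype). *Mstn* is lower and *Fst* and *Fstl1* are higher in every HET than in every WT mouse, while the genotypes overlap in the other 5 genes.

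Of the ligands, *Mstn* had few reads, 40, 51 and 74 in HET 1 to 3 and 98, 64 and 125 in WT 1 to 3. Scaled to library size this was 1.07, 1.90 and 1.69 CPM in HET and 3.28, 2.27 and 2.53 CPM in WT mice. The highest HET mouse thus lay below the lowest WT mouse, with HET 1 the lowest of all. The nearest pair, HET 2 and WT 2, rested on 51 and 64 reads, so counting error alone could reverse their order. The HET mean was 1.55 ± 0.432 and the WT mean 2.69 ± 0.523 CPM (SD, n = 3 each), which gave a log2 fold change of −0.80 (SE 0.26, edgeR adjusted p = 0.385), which did not pass. At 40 reads the counting error alone is 15.8% of the value, beside a spread between mice of 27.8% in HET and 19.4% in WT. Leaving out single mice moved it between −0.94 (without HET 2) and −0.59 (without HET 1).

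*Gdf11*, the closest relative of myostatin, had 3.07, 3.09 and 4.06 CPM in HET and 2.94, 3.94 and 2.49 CPM in WT mice. The genotypes overlapped almost fully, at 3.41 ± 0.562 (SD, n = 3) against 3.12 ± 0.739 CPM (SD, n = 3), and the log2 fold change was 0.14 (SE 0.22, edgeR adjusted p = 0.943). Without HET 3 or without WT 3 it was −0.01. Relative to *Gdf11*, in TPM, *Mstn* stood at 0.522, 0.923 and 0.624 in HET and at 1.67, 0.866 and 1.53 in WT mice, so this ratio overlapped between genotypes in WT 2.

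Among the traps, *Fst* had 11.2, 10.5 and 10.1 CPM in HET and 9.26, 7.45 and 6.48 CPM in WT mice. Every HET mouse lay above every WT mouse, and the HET mice were the tighter group, with a spread of 5.20% of the mean against 18.3%. The means of 10.6 ± 0.550 (SD, n = 3) and 7.73 ± 1.41 CPM (SD, n = 3) gave a log2 fold change of 0.46 (SE 0.15, edgeR adjusted p = 0.385), which did not pass. The other trap, *Fstl3*, had 2.22, 2.05 and 1.32 CPM in HET and 1.67, 2.27 and 1.97 CPM in WT mice. Here the genotypes overlapped, HET 3 was lowest, and the log2 fold change of −0.09 (SE 0.26, edgeR adjusted p = 0.973) was smaller than its error. It turned to 0.12 without HET 3 and to 0.02 without WT 2.

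*Fstl1* was by far the most abundant of the 8 genes, with between 2508 and 9805 reads per library. It had 147, 129 and 223 CPM in HET and 83.9, 110 and 94.5 CPM in WT mice. Again no HET mouse fell into the WT range, and HET 3 stood well above the other HET mice. The means were 167 ± 50.1 (SD, n = 3) and 96.2 ± 13.3 CPM (SD, n = 3), a log2 fold change of 0.79 (SE 0.20, edgeR adjusted p = 0.263). DESeq2's Wald test called it, with an adjusted p of 0.00113, as did edgeR without the filter on low counts, with an adjusted p of 1.22e-08. Both settings called far more genes in all than the main fit, as given above. Over the 17 other settings the adjusted p lay between 1.22e-08 and 0.644, and without HET 3 the log2 fold change was 0.53.

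The ratio of *Mstn* to its trap *Fst*, in TPM, was 0.0827, 0.156 and 0.145 in HET and 0.306, 0.263 and 0.337 in WT mice. It combines the values of both genes and was given no test. On the log2 scale the HET mean was −3.02 ± 0.50 and the WT mean −1.73 ± 0.18 (SD, n = 3 each). The genotypes did not overlap, which follows from the non-overlap of both genes in opposite directions and adds no separate observation.

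**Figure D3:**
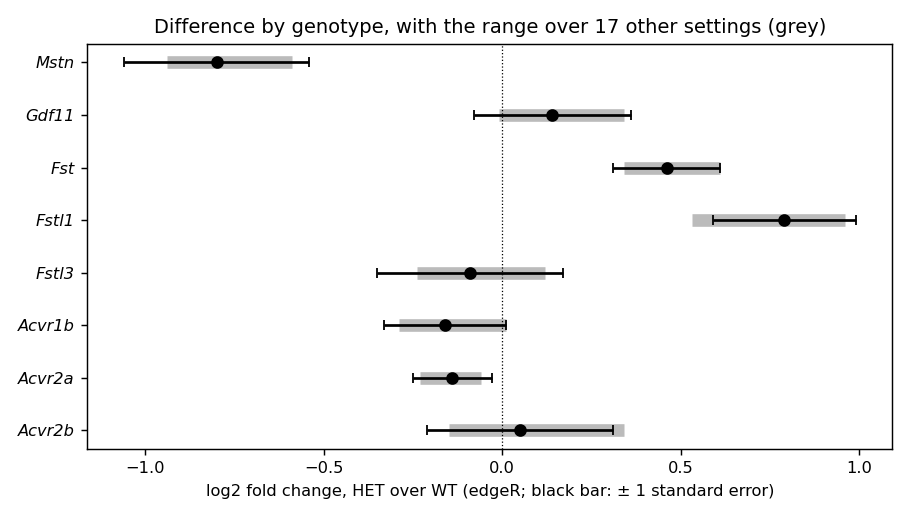
Log2 fold change of HET over WT for each gene (points, with ± 1 standard error from edgeR) and its range over 17 other settings (grey). The grey bars of *Mstn*, *Fst*, *Fstl1* and *Acvr2a* stay on 1 side of 0, and those of the other 4 genes cross it.

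None of the receptors differed beyond the spread between mice. The type II receptor *Acvr2a* had 40.5, 36.7 and 41.0 CPM in HET and 45.6, 47.1 and 38.0 CPM in WT mice. It was the steadiest of the 8 genes in TPM, its genotypes overlapped, and its log2 fold change was −0.14 (SE 0.11, edgeR adjusted p = 0.857). *Acvr2b*, the other type II receptor, had 10.7, 11.9 and 5.36 CPM in HET and 8.56, 8.72 and 9.56 CPM in WT mice. HET 3 was the lowest and the other HET mice were above all WT mice, so the spread within HET (37.5% of the mean) was larger than within WT (6.0%), while the means of 9.33 ± 3.50 and 8.95 ± 0.537 CPM (SD, n = 3) hardly differed. The log2 fold change of 0.05 (SE 0.26, edgeR adjusted p = 0.984) changed sign in 5 of the 17 other settings, among them limma-voom (−0.08), and was 0.34 without HET 3.

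The type I receptor *Acvr1b* had 20.9, 21.7 and 15.3 CPM in HET and 20.7, 17.5 and 26.2 CPM in WT mice. The lowest value was again that of HET 3 and the highest that of WT 3, and the log2 fold change was −0.16 (SE 0.17, edgeR adjusted p = 0.912), or 0.01 without WT 3. In HET 3, then, *Acvr1b*, *Acvr2b* and *Fstl3* were lowest of all 6 mice and *Fstl1* and *Gdf11* highest. The ratio of *Acvr2a* to *Acvr2b* in TPM was 5.28 in this mouse and between 2.13 and 3.73 in the other 5.

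Muscle is a mixture of fibers and other cells, and in whole-tissue RNA a change in the number of cells of a type and a change in RNA per cell cannot be told apart. For *Mstn*, which fast fibers are known to express more than slow fibers, the fast-fiber genes were therefore set beside it. The fastest myosin, *Myh4*, had 44.7, 2042 and 167 CPM in HET and 1470, 1774 and 976 CPM in WT mice, so that HET 1 and HET 3 lay far below every other mouse. Of 10 fast-twitch marker genes, 10 were below 0 in log2 fold change, with a median of −0.26 and 0 past the threshold. Of 8 slow-twitch markers 7 were below 0 too, and over all genes tested 45.6% were above 0. Every HET mouse lay below every WT mouse in 4 of the 10 fast-twitch and 1 of the 8 slow-twitch markers, and in 6.02% of all genes tested. The summed fast-twitch level was 33577, 40308 and 34157 CPM in HET and 42534, 39585 and 41688 CPM in WT mice, with overlap. *Myh1*, another fast myosin, also overlapped, at 4976, 4083 and 5492 CPM in HET and 7031, 4357 and 6658 CPM in WT mice. HET 2 had more *Myh4* than any WT mouse, and its *Mstn*, 1.90 CPM from 51 reads, was the highest of the HET mice but below every WT mouse. Within HET both genes were lowest in HET 1 and highest in HET 2. Within WT, WT 2 was highest in *Myh4* and lowest in *Mstn*. Among the 14695 other genes tested, *4932435O22Rik*, *Bdkrb2* (the bradykinin B2 receptor) and *Pvalb* (parvalbumin, a calcium buffer of fast fibers) had the pattern over the 6 libraries most like that of *Mstn*. Their root-mean-square distances were 0.167, 0.172 and 0.190 in centered log2 CPM. The median gene lay at 0.514, and a gene level over all libraries would lie at 0.491. *Pvalb* had 205, 426 and 295 CPM in HET and 684, 552 and 429 CPM in WT mice. These genes were picked for their likeness to *Mstn*, so that likeness is not separate evidence. The nearest, *4932435O22Rik*, had only 0.347 to 0.936 CPM. The part of fiber composition in the *Mstn* values was not tested.

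For *Fstl1*, which cells of the fibroblast lineage are known to secrete, markers of fibro-adipogenic progenitors and fibroblasts were set beside it. All 15 were above 0, with a median log2 fold change of 0.83 and 1, *Pi16*, past the threshold. Their summed level was 2535, 3324 and 3637 CPM in HET and 1196, 1803 and 1943 CPM in WT mice. HET 3 was highest in both this sum and *Fstl1*, whereas the order of HET 1 and HET 2, and that of WT 2 and WT 3, differed between them. All 10 tenocyte markers (median 1.16, 0 past the threshold) and 12 of 12 macrophage markers (median 1.40, 5 past the threshold, among them *C1qa* and *Csf1r*) were also above 0. Their part in the values of *Fstl1* and *Fst* was not tested. Medians of the other lists, none with a gene past the threshold, were −0.08 for slow-twitch fibers, 0.14 for type 2A fibers (*Myh2* alone), −0.13 for satellite cells, 0.04 for vascular smooth muscle, −0.03 for pericytes, −0.06 for endothelial cells, 0.02 for Schwann cells and nerve, 1.07 for adipocytes and 1.99 for mast cells.

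**Figure D4:**
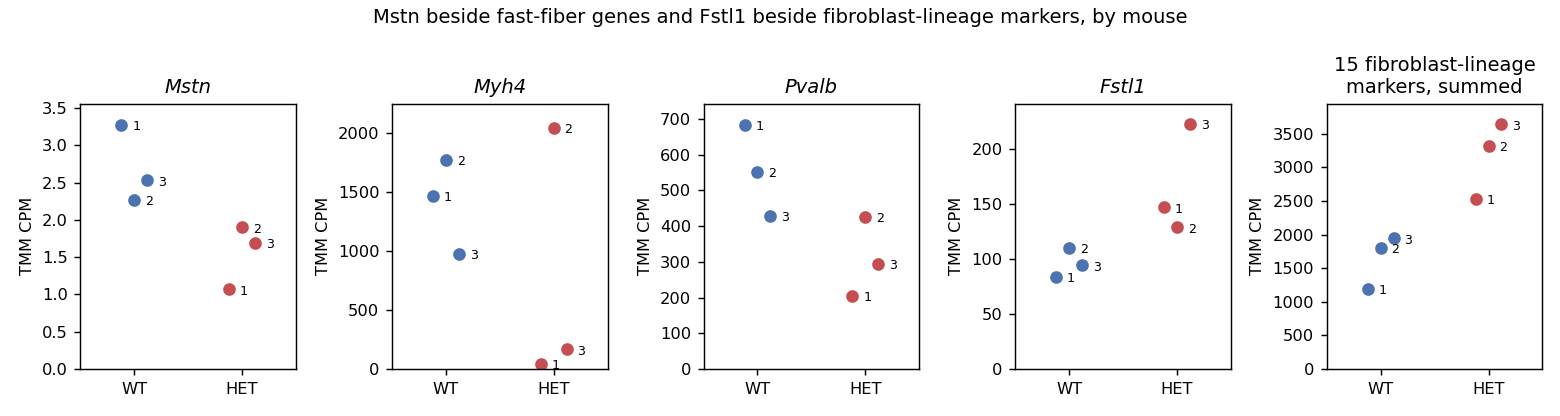
*Mstn* beside the fast-fiber genes *Myh4* and *Pvalb*, and *Fstl1* beside the summed level of 15 fibroblast-lineage markers, in TMM CPM with 1 point per mouse and its replicate number. *Pvalb* was picked because its pattern was near that of *Mstn*. HET 1 and HET 3 hold 44.7 and 167 CPM of *Myh4*, and the marker sums of the HET mice (2535 to 3637) lie above those of WT mice (1196 to 1943).

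The wider pathway was read from lists of 70 genes by role, of which 63 were tested. None passed an adjusted p of 0.05 with edgeR. Of the 55 that are not among the 8 genes, 36 were above and 19 below 0, with a median log2 fold change of 0.03, and 7 (12.7%) had an unadjusted p below 0.05, all with a higher mean in HET mice. Over all genes tested 45.6% were above 0, and of the 1140 with an unadjusted p below 0.05, 846 had the higher mean in HET mice. The genotypes did not overlap in 8 of the 55 (14.5%), a share near that over all genes tested (7.55% above and 6.02% below). Every HET mouse lay below every WT mouse in *Bmpr1a* and *Zfyve9*, and above in the rest of these.

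Among 9 ligand genes tested, *Inhba*, which encodes the subunit of activin A, lay at the other end from *Mstn*. It had 5.74, 5.18 and 6.38 CPM in HET and 3.91, 3.72 and 3.2 CPM in WT mice, with no overlap. Its log2 fold change was 0.68 (SE 0.16, edgeR adjusted p = 0.174). *Tgfb1*, the TGF-β1 ligand, had a log2 fold change of 0.44 (SE 0.17, edgeR adjusted p = 0.544), and WT 3, at 9.20 CPM, exceeded HET 1, at 9.16. Activin A and myostatin RNA thus differed in opposite directions between the group means, and neither difference passed.

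The proteases that process ligand precursors were the list with the highest median, 0.59 over 6 genes. *Bmp1*, a tolloid-type protease that cleaves the myostatin propeptide and procollagens, had 24.3, 25.7 and 29.3 CPM in HET and 15.3, 19.4 and 20.1 CPM in WT mice. Its genotypes did not overlap, and its log2 fold change was 0.53 (SE 0.13, edgeR adjusted p = 0.174). The proprotein convertases *Pcsk6* (log2 fold change 0.73, SE 0.22, edgeR adjusted p = 0.338) and *Pcsk5* (0.65, 0.23 and 0.460) did not overlap either. The ends of this list were *Tll2* at 0.77 and *Tll1* at −0.20, both tolloid-type proteases with at most 62 reads per library. *Furin* itself was at 0.05. The fibroblast, tenocyte and macrophage markers described above, with medians of 0.83, 1.16 and 1.40, differed in the same direction as *Bmp1*, *Pcsk5*, *Pcsk6*, *Inhba* and *Dcn*, and their part in these values was not tested.

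Among the 9 extracellular antagonists and carriers tested, *Dcn* (decorin, a matrix proteoglycan that can bind myostatin) had a HET mean of 302 ± 33.9 and a WT mean of 202 ± 41.0 CPM (SD, n = 3 each), with no overlap and a log2 fold change of 0.58 (SE 0.14, edgeR adjusted p = 0.197). *Wfikkn2*, which encodes the myostatin-binding protein GASP-1, was the lowest of the list at −0.17 (standard error 0.15), and the highest was *Fstl1*.

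Of 14 receptors and coreceptors tested, *Acvr1c* (ALK7, a type I receptor of activins known from fat) had the largest log2 fold change, 1.13 (SE 0.44, edgeR adjusted p = 0.534), and *Bmpr1b* the lowest, −0.23. *Acvr1c* had 1.5, 4.17 and 2.03 CPM in HET and 0.870, 0.745 and 1.72 CPM in WT mice, with HET 2 far above the rest and HET 1 below WT 3, and without HET 2 its log2 fold change was 0.64. The summed level of 8 adipocyte markers was also highest in HET 2, at 496 CPM, against 287 to 339 CPM in the other 5 mice, and its part in the *Acvr1c* value was not tested.

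Downstream of the receptors, the 12 intracellular transducers and inhibitors, Smads included, lay between −0.18 (*Tgif1*) and 0.22 (*Pmepa1*) with a median of 0.00, and 0 of them had an unadjusted p below 0.05. The 13 genes of Smad2/3 response and growth output, with the ubiquitin ligases *Fbxo32* and *Trim63* among them, lay between −0.22 (*Foxo1*) and 0.42 (*Ccn2*) with a median of 0.02, again with 0 at an unadjusted p below 0.05. *Ccn2*, a matrix protein gene that TGF-β induces, lay at 0.21 without WT 1 and at 0.86 without WT 3.

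**Figure D5:**
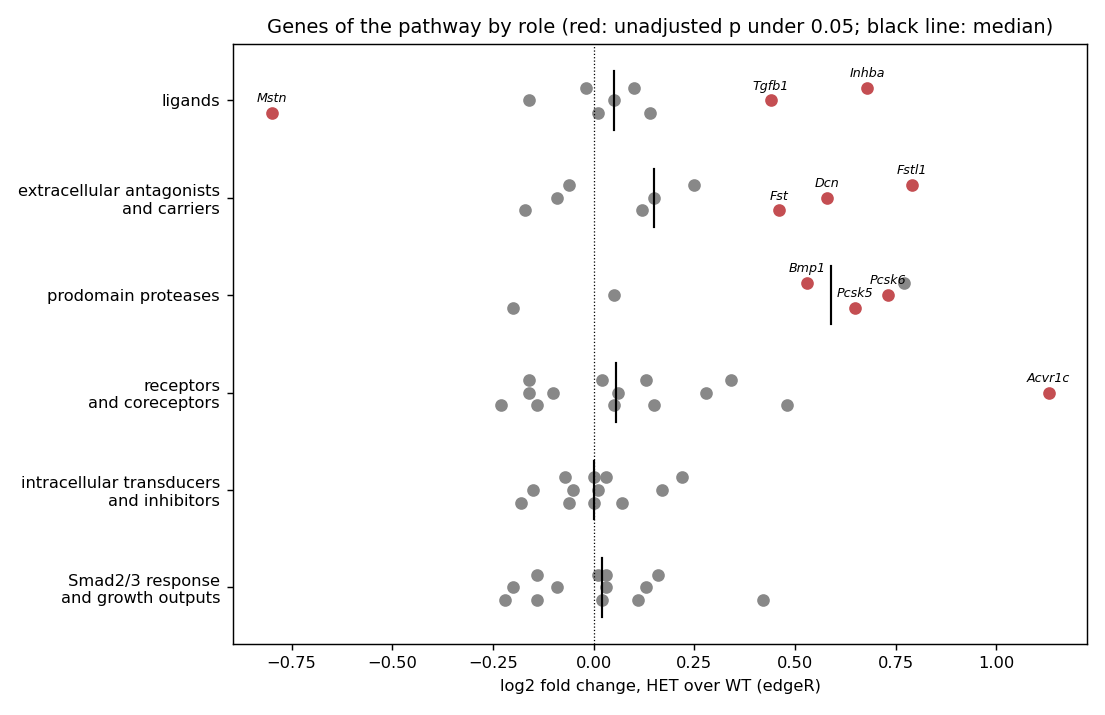
Log2 fold change of HET over WT (edgeR) for the 63 tested genes by role, with genes at an unadjusted p below 0.05 in red and the median of each list as a black line. The red genes are ligands, antagonists, proteases and *Acvr1c*, and the intracellular and output genes lie between −0.22 and 0.42.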

How the data were processed

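RNA of 6 soleus muscles was sequenced with reads of 50 bases. The authors aligned reads to GRCm38.p6 with STAR 2.7.3a and deposited raw counts per gene from featureCounts 2.0.3 in reverse-stranded mode, without normalization. They also deposited a normalized signal, in which DESeq2 size factors had scaled the counts of each library (16247 rows, 67 of them repeats of a gene). All of its values gave whole reads within 0.001 read (100% of values), and 100% equaled the raw counts. Another deposited table holds the authors' own comparison and was not used. There were 0 columns without a sample.

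Raw counts were analysed in R 4.3.3 with edgeR 4.0.16 (filterByExpr with a minimum count of 10, TMM factors, robust quasi-likelihood test by genotype, two-sided, Benjamini-Hochberg adjustment over 14696 genes, threshold 0.05). The standard error is the log2 fold change over the square root of F. CPM use TMM factors and TPM the deposited gene lengths. P-values measure the spread between these mice, whose litters are not given in the sources used here. Nearness to the *Mstn* pattern used log2 CPM with a prior count of 2. Alternatives used DESeq2 1.42.0, limma 3.58.1 (voom, or trend on log2 of the normalized signal plus 1), other scaling and filters, a replicate block and each mouse left out. On simulated counts with 200 changed genes among 14486, edgeR found 85 of 100 doubled or halved and 97 of 100 4-fold changed genes. It made 22 false calls beside 182 correct ones, a larger false share than the 0.05 threshold aims at. The changed genes all had a mean above 1 CPM. Changes smaller than a doubling or halving, like those of all 8 genes, were not simulated.

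The members and the lists (6 by role, 13 of cell type markers) were chosen with earlier results of these data known. Named were the 8 genes, pathway genes at an unadjusted p below 0.05, the ends of each list, label and myosin checks, and the 3 genes nearest to *Mstn*. Beyond this rule, *Furin*, *Pi16*, *C1qa*, *Csf1r*, *Fbxo32*, *Trim63*, *Bmpr1a* and *Zfyve9* were named after their values were seen. Sequences are from RefSeq and GENCODE M21, both GRCm38. Figures were drawn with matplotlib 3.10.9 in Python 3.11.15.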

Additional observations from a re-analysis of the deposited data

How the results depend on the processing

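No setting changed the direction of *Mstn*, *Fst*, *Fstl1* or *Acvr2a* among the 17 tried, and *Mstn*, *Fst* and *Acvr2a* passed the threshold in none of them. The number of the 8 genes called was 1, *Fstl1*, without a filter on low counts and with DESeq2's Wald test, and 0 otherwise, each mouse left out included (0 to 0). Over all genes, 386 were higher and 18 lower without a filter, 204 and 9 with DESeq2's Wald test, 3 and 0 with limma-voom, 9 and 0 with limma-trend on the deposited normalized values, 6 and 0 with a non-robust fit, against 21 and 1. With 1 mouse left out, between 0 and 77 were higher and between 0 and 6 lower: 0 without HET 1, HET 3, WT 1 or WT 2, and 77 and 6 without WT 3. On reads recovered from the normalized signal, an alternative chosen after seeing the data, 20 were higher and 1 lower. These reads equal the raw counts, so this setting, 1 of the 17, differed from the main fit only in the genes included. The cause of the shifts between settings was not tested.

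With the replicate number as a block, 114 genes were higher and 2 lower, and 0 of the 8 genes passed. The deviations of HET 1 and WT 1 correlated at 0.20 over 14696 genes, the highest of all pairs of a HET and a WT mouse, but the other same-numbered pairs were at −0.01 and −0.03. HET 2 correlated best with WT 3 (0.13) and HET 3 with WT 2 (0.07), so the numbers were not taken to pair the mice.

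*Acvr2b* turned to −0.08 with limma-voom, −0.01 with limma-trend and −0.02 with the block, and ranged from −0.15 to 0.34 with 1 mouse left out. In those fits *Gdf11* ranged from −0.01 to 0.34, *Fstl3* from −0.24 to 0.12, *Acvr1b* from −0.29 to 0.01 and *Tll1* from −0.41 to 0.04. Of the other pathway genes named, *Dcn* passed in 4 of 17 settings, *Pcsk6* in 3, *Bmp1* in 2, and *Inhba*, *Pcsk5* and *Acvr1c* in 1 each. *Mstn* and *Fstl3* had as few as 40 and 50 reads in a library. For *Mstn* in HET mice the spread of 27.8% exceeded the 15.8% that counting gives at 40 reads, so depth was not the only limit.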
